A study of Mus musculus with 9 samples.

Results

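The 32 genes described here encode lysosomal hydrolases, their activators and lysosomal membrane proteins, together with the transcription factor Tfeb and progranulin, Grn. They were chosen by gene name out of the 21951 genes of the count table, on what their products do, and cathepsins and the proton pump were left out. RNA was sequenced from the immortalised mouse microglial line BV2, labelled as wild type, in 3 groups of 3 libraries. The triol-treated irradiated cells received a steroid made by synthesis, 5α-androst-3β,5α,6β-triol, at 10 µM for 30 min and then 10 Gy of X-rays in 1 dose. The irradiated cells received the vehicle, 20% hydroxypropyl-β-cyclodextrin, for 30 min before the same dose. The control cells received the vehicle and no radiation. No vehicle is labelled for the triol group, no group received triol without radiation, and how long after irradiation RNA was taken is not stated in the labels. The titles of triol replicates 2 and 3 name the same compound as replicate 1, but their treatment labels name the 7β and the 8β triol. Whether the libraries of a group came from separate cultures is not labelled, so p-values reflect library-to-library spread that may be only technical.

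The lysosome is the acidic compartment in which a cell breaks down glycans, lipids, proteins and nucleic acids brought in by endocytosis, phagocytosis and autophagy. Soluble hydrolases reach it largely through mannose phosphate tags and their receptors, and they work inside a membrane lined with heavily glycosylated proteins. In microglia this compartment digests synaptic material, myelin and dead cells. TFEB, a basic helix-loop-helix factor held in the cytoplasm when the kinase mTORC1 is active, binds the CLEAR element in promoters of many lysosomal genes.

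The CLEAR element has the letters CACGTG at its centre. Promoters of 29 of the 32 members were found in the RefSeq windows of GRCm38.p6, which run from 250 bases before to 50 bases after each annotated start, and Aga, Asah1 and Galns are named only. The letters TCACGTG, searched on both strands, were in the windows of 8 members, namely Arsa, Gaa, Gla, Glb1, Lamp1, Mcoln1, Naglu and Sgsh. That was 27.6% of the members with a window, against 7.22% of the 8960 tested genes with a window of the same length. The element is known from promoters of lysosomal genes, so a higher share in this list is not a new result. The shorter CACGTG, which lies within TCACGTG, was in the same 8 members and in 12% of the tested genes. Windows of 4 members are shown because they hold the letters and their RNA differed in direction under radiation, with Lamp1 higher, Naglu and Arsa lower and Mcoln1 not past the threshold. Each run gives the 250 bases before the RefSeq start, 5′ to 3′ on the gene's strand, with CACGTG and a flanking T before it or A after it in capitals. Lamp1 was read at chr8:13158911-13159160 on the plus strand, Naglu at chr11:101069844-101070093 on the plus strand, Arsa at chr15:89477425-89477674 on the minus strand and Mcoln1 at chr8:3500269-3500518 on the plus strand.

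Lamp1: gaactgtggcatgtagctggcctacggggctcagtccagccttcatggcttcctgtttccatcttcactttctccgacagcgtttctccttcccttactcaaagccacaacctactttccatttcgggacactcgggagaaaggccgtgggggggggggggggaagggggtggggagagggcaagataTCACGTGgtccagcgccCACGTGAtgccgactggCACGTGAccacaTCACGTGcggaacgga
Naglu: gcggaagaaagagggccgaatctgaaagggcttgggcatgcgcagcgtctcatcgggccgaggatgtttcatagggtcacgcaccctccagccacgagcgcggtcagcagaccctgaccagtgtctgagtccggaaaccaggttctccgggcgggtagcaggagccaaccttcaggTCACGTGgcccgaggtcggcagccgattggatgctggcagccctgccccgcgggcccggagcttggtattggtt
Arsa: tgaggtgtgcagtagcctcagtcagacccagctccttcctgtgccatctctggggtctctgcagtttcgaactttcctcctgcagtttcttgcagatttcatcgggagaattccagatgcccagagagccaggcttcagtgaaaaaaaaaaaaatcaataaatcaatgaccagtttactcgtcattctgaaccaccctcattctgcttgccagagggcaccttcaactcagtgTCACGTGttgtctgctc
Mcoln1: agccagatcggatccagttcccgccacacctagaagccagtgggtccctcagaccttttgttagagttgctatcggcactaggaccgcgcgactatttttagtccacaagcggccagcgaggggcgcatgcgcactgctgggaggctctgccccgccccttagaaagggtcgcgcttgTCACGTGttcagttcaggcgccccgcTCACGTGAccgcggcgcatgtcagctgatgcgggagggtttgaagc

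Lamp1 held 4 such sites, whose CACGTG began at bases -61, -45, -28 and -15 from the start, Mcoln1 held sites at -71 and -45, Naglu held 1 at -73 and Arsa held 1 at -16. Of the 8 members with TCACGTG, 2 fell, 1 rose and 5 did not pass the threshold in irradiated against control cells. Of the 21 members whose windows lacked it, 10 fell, 1 rose and 10 did not pass. Over all tested genes 22.2% fell and 22.1% rose in that comparison. Whether the letters go with the direction of change was not tested. A match of letters is not a measured binding site.

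Library totals were 17230866 to 18944051 counts in triol-treated irradiated cells, 13879062 to 15192203 in irradiated cells and 14118475 to 17705424 in control cells. All 32 members passed the filter on low counts, as did 11295 genes in all. Values are normalised read counts (CPM) after TMM scaling, that is, a gene's counts relative to the size of its library, and fold changes and adjusted p-values come from the quasi-likelihood F test of edgeR over all tested genes, with a threshold of 0.05. Markers of microglia were counted as a check of the label, and all 13 listed were detected, although P2ry12 held 6 to 14 counts and Tmem119 16 to 26 counts per library. Of these 13 markers 10 fell and 0 rose in irradiated against control cells, beside 22.2% lower and 22.1% higher over all tested genes. The markers had a summed level of 1708 to 1729 CPM in triol-treated irradiated cells, 1694 to 1735 CPM in irradiated cells and 2236 to 2337 CPM in control cells. Their part in the results below was not tested, and in bulk RNA fewer cells of a kind and less RNA per cell cannot be told apart. The 11 hepatocyte genes of the table summed to 31.8 to 33.6 CPM in triol-treated irradiated cells, 27.6 to 30.9 CPM in irradiated cells and 22.6 to 26.9 CPM in control cells, and most of that was Hp. Without Hp, left out after its values were seen, the list summed to 8.87 to 10.1 CPM in triol-treated irradiated cells, 0.915 to 2.67 CPM in irradiated cells and 1.11 to 2.63 CPM in control cells. The astrocyte list summed to 1.5 to 2.05 CPM in triol-treated irradiated cells, 1.96 to 2.19 CPM in irradiated cells and 0.326 to 0.866 CPM in control cells, with Aqp4 at 0 counts throughout. Its only tested gene, Slc1a2, rose in irradiated against control cells (log2 1.63, SE 0.39, edgeR adjusted p = 6.1e-04). The neuron list summed to 0.520 to 1.19 CPM in triol-treated irradiated cells, 0 to 0.137 CPM in irradiated cells and 0.0652 to 0.630 CPM in control cells. Oligodendrocyte genes summed to at most 0.458 CPM in any library, with Opalin at 0 counts throughout. The part of these lists in the results was not tested either.

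Radiation was followed by lower RNA of many of the members, by modest amounts, and triol moved none of them past the threshold. In irradiated against control cells 15 of the 32 members fell, 2 rose and 15 did not pass. Over all tested genes 44.3% passed, with 22.2% lower and 22.1% higher, while the members' shares were 46.9% lower and 6.25% higher. Their median log2 fold change was -0.09, against 0.01 over all tested genes, and it ran from -0.66 for Naglu to 0.32 for Ids. For 17 members the irradiated and control libraries did not overlap, 15 with the irradiated cells below and 2 above, beside 50.7% of all tested genes, 25.5% below and 25.2% above. The plot of every library shows these shifts, with libraries of a group lying close together.

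**Figure D1:**
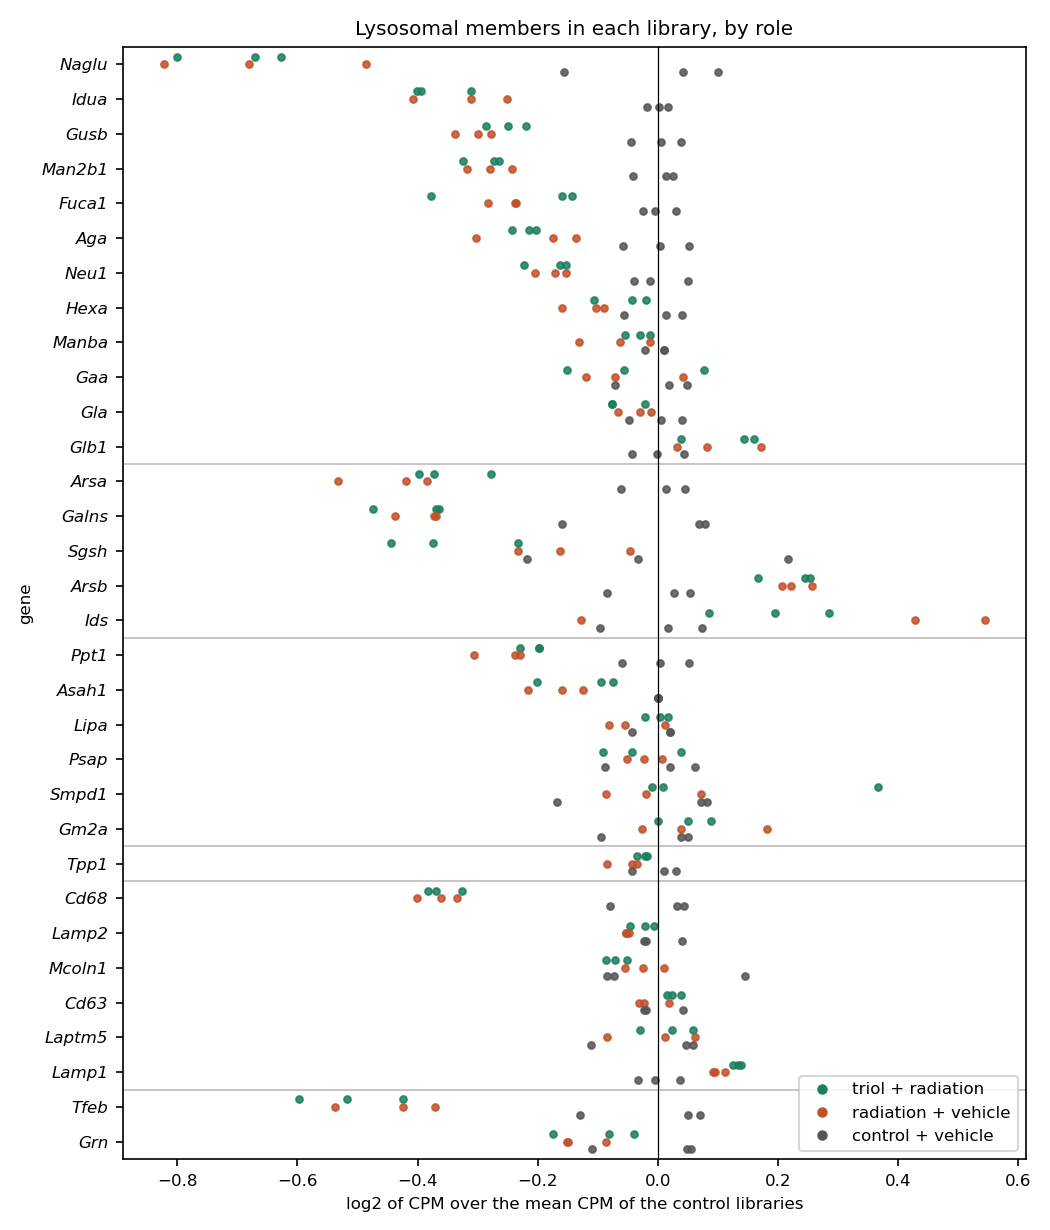
Level of each of the 32 members in each of the 9 libraries, as log2 of CPM over the mean of the control libraries (horizontal axis), with 1 point per library and members grouped by role from glycan enzymes at the top through sulfatases, lipid enzymes, Tpp1 and membrane proteins to Tfeb and Grn at the bottom. Naglu lies farthest to the left in both irradiated groups, and Lamp1 and Arsb lie right of their control libraries.

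Per length, the members spanned a wide range of abundance. Length-normalised levels (TPM) were computed from the counts and the exonic length of each gene, and averaged over the 9 libraries they ran from 2128 TPM for Cd68 to 3.79 TPM for Ids, a ratio of 561. Psap followed Cd68 at 1801 TPM, Lamp1 stood at 1521 TPM and Grn at 1303 TPM. The median member lay at percentile 83.6 of the tested genes, and 25 of the 32 were above the median tested gene. Along this order, 18 neighbouring pairs overlapped in their ranges over the 9 libraries, so those neighbours are not separated. Summed over the members, the level was 11381 ± 260 TPM in triol-treated irradiated cells, 11198 ± 181 TPM in irradiated cells and 11928 ± 410 TPM in control cells (SD, n = 3 each). Library spread was low, with a median coefficient of variation within groups of 3.54% over the members, from 1.23% for Lamp1 to 12% for Ids, beside 5.01% over all tested genes.

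**Figure D2:**
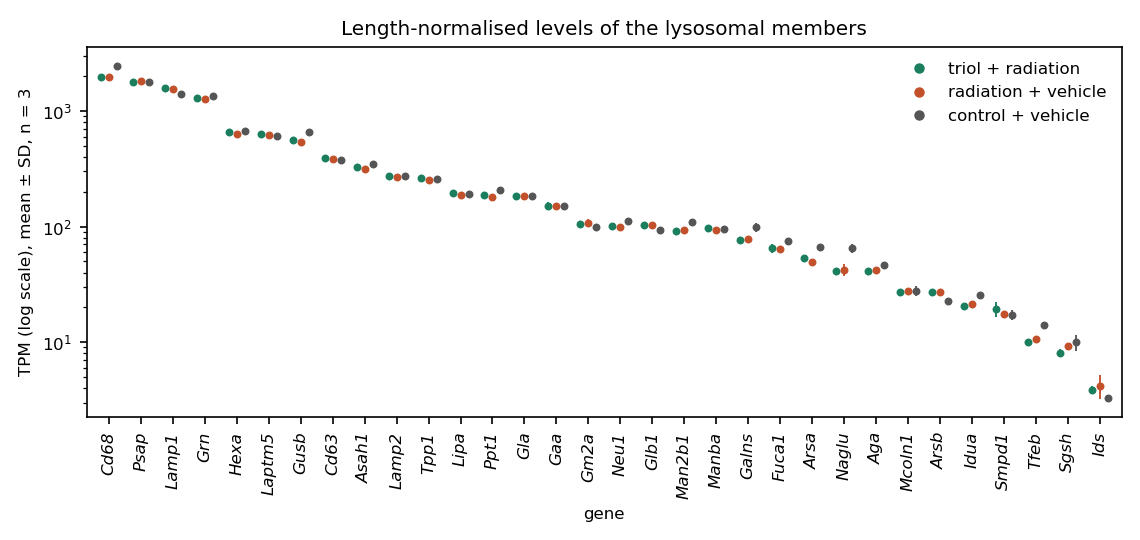
Length-normalised level of each member in TPM on a log axis, as the mean with SD over 3 libraries in each group, ordered by the mean of all 9 libraries. Cd68, Psap, Lamp1 and Grn lead the order, and Tfeb, Sgsh and Ids close it.

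The enzymes that cut sugars from glycans and glycoconjugates formed the largest group. Of these 12, 8 (66.7%) fell and 0 rose in irradiated against control cells, with a median log2 fold change of -0.19. Over all tested genes 22.2% fell and 22.1% rose, with a median of 0.01. Naglu, the glucosaminidase of heparan sulphate breakdown, lies at chr11:101070012-101077672 on GRCm38. It had 26.6, 29.1 and 30.0 CPM in triol-treated irradiated cells, 28.9, 33.1 and 26.2 CPM in irradiated cells, and 49.7, 47.7 and 41.6 CPM in control cells. Every control library was above all 6 irradiated libraries. Naglu fell by 36.7% in irradiated against control cells, by 0.66 on the log2 scale (SE 0.08, edgeR adjusted p = 1.7e-09).

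Idua, the iduronidase that acts on heparan and dermatan sulphate, had 23.5, 22.2 and 22.1 CPM in triol-treated irradiated cells, 22, 23.5 and 24.5 CPM in irradiated cells, and 29.5, 28.8 and 29.2 CPM in control cells. It fell by 0.32 (log2, SE 0.07, edgeR adjusted p = 3.9e-04) in irradiated against control cells, again with no overlap between these groups. Gusb, β-glucuronidase, was an abundant enzyme of the group with 655, 686 and 672 CPM in triol-treated irradiated cells, 649, 659 and 632 CPM in irradiated cells, and 820, 802 and 774 CPM in control cells. The 95% interval of its log2 fold change ran from -0.37 to -0.25 in irradiated against control cells, around -0.31 (edgeR adjusted p = 2.1e-11). Man2b1, the lysosomal α-mannosidase, had 189, 197 and 196 CPM in triol-treated irradiated cells, 190, 200 and 195 CPM in irradiated cells, and 241, 239 and 230 CPM in control cells. It fell by 17.7% (log2 -0.28, SE 0.03, edgeR adjusted p = 8.3e-09), and the control libraries stood above the rest.

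Fuca1, which removes fucose, had 58.5, 59.2 and 50.3 CPM in triol-treated irradiated cells, 55.4, 55.5 and 53.7 CPM in irradiated cells, and 64.2, 66.7 and 65.1 CPM in control cells, and it fell by 0.25 (log2, SE 0.06) in irradiated against control cells. Neu1, the lysosomal sialidase, had 99.2, 95.1 and 99.9 CPM in triol-treated irradiated cells, 96.3, 98.6 and 99.9 CPM in irradiated cells, and 110, 115 and 108 CPM in control cells, and it fell by 0.18 (log2, SE 0.04). The edgeR adjusted p was 2.7e-04 for Fuca1 and 6.3e-04 for Neu1, and in both genes each irradiated library was below each control library. Hexa encodes the α subunit of β-hexosaminidase, which degrades gangliosides, and had 334, 349 and 355 CPM in triol-treated irradiated cells, 338, 335 and 322 CPM in irradiated cells, and 363, 370 and 346 CPM in control cells. It fell by 7.78% in irradiated against control cells (log2 -0.12, SE 0.03, edgeR adjusted p = 0.0035). Aga, which splits the bond between asparagine and its glycan, had 25.4, 25.2 and 24.7 CPM in triol-treated irradiated cells, 23.7, 26.6 and 25.9 CPM in irradiated cells, and 29.3, 28.1 and 30.3 CPM in control cells. Aga fell by 0.20 (log2, SE 0.07, edgeR adjusted p = 0.023), a call that was lost without control replicate 1, control replicate 3 or irradiated replicate 1, at adjusted p of 0.05, 0.079 and 0.13 in that order.

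The other 4 glycan enzymes did not pass the threshold in irradiated against control cells. These are Manba for mannose linkages, Gaa for glycogen, Gla for globosides and Glb1, the β-galactosidase stained as a mark of senescent cells. Their log2 fold changes were -0.07, -0.05, -0.04 and 0.09 in that order, each with a 95% interval within 0.2 of 0. Glb1 had 77.8, 83.6 and 84.6 CPM in triol-treated irradiated cells, 80.1, 85.3 and 77.4 CPM in irradiated cells, and 73.5, 78.0 and 75.6 CPM in control cells, so the irradiated and control libraries overlapped (edgeR adjusted p = 0.11).

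The 5 sulfatases, which strip sulphate from glycosaminoglycans and sulphatides, went in different directions, with 2 lower, 1 higher and 2 not past the threshold. That was 40.0% lower and 20.0% higher, beside 22.2% and 22.1% of all tested genes. Arsa, the sulfatase of myelin sulphatide, lies at chr15:89472476-89477425 and had 49.5, 50.4 and 53.8 CPM in triol-treated irradiated cells, 50, 48.8 and 45.1 CPM in irradiated cells, and 67.3, 65.9 and 62.5 CPM in control cells. It fell by 26.5% in irradiated against control cells (log2 -0.44, SE 0.06, edgeR adjusted p = 1.3e-08). Galns, which acts on keratan sulphate, had 50.8, 54.6 and 54.8 CPM in triol-treated irradiated cells, 54.6, 54.5 and 52.1 CPM in irradiated cells, and 74, 74.5 and 63.2 CPM in control cells. Its control replicate 3 was the lowest of the control libraries and still above all irradiated ones, and it fell by 0.39 (log2, SE 0.06, edgeR adjusted p = 2.9e-07).

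Arsb, the sulfatase of dermatan sulphate, rose instead. It had 43.9, 41.3 and 43.6 CPM in triol-treated irradiated cells, 42.9, 44.0 and 42.5 CPM in irradiated cells, and 37.5, 38.2 and 34.7 CPM in control cells. Its increase in irradiated against control cells was 17.0% (log2 0.23, SE 0.06, edgeR adjusted p = 0.0026), with no overlap of libraries. Genes on the other strand cover 39.9% of the exonic bases of Arsb, 18.8% of Arsa and 21.6% of Sgsh. The partner of Sgsh, Card14, is in the count table, and those of Arsb and Arsa are not. Card14 held 179 to 214 counts per library and Sgsh 141 to 241. No source used here gives the strand setting of the counting, so how reads from these stretches were counted is not known.

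Sgsh and Ids, both of heparan sulphate breakdown, were the lowest members per length and had the largest standard errors of the members. Sgsh had 10.1, 9.16 and 8.72 CPM in triol-treated irradiated cells, 10.6, 10.1 and 11.5 CPM in irradiated cells, and 10.2, 13.8 and 11.6 CPM in control cells, with a log2 fold change of -0.16 in irradiated against control cells (SE 0.11, edgeR adjusted p = 0.27). Ids had 4.80, 5.18 and 5.51 CPM in triol-treated irradiated cells, 6.09, 4.14 and 6.60 CPM in irradiated cells, and 4.76, 4.58 and 4.23 CPM in control cells. Its irradiated replicate 2 lay below all control libraries and the other 2 irradiated libraries above them. The log2 fold change of Ids was 0.32 (SE 0.17, edgeR adjusted p = 0.12), and without irradiated replicate 2 the adjusted p was 0.019.

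**Figure D3:**
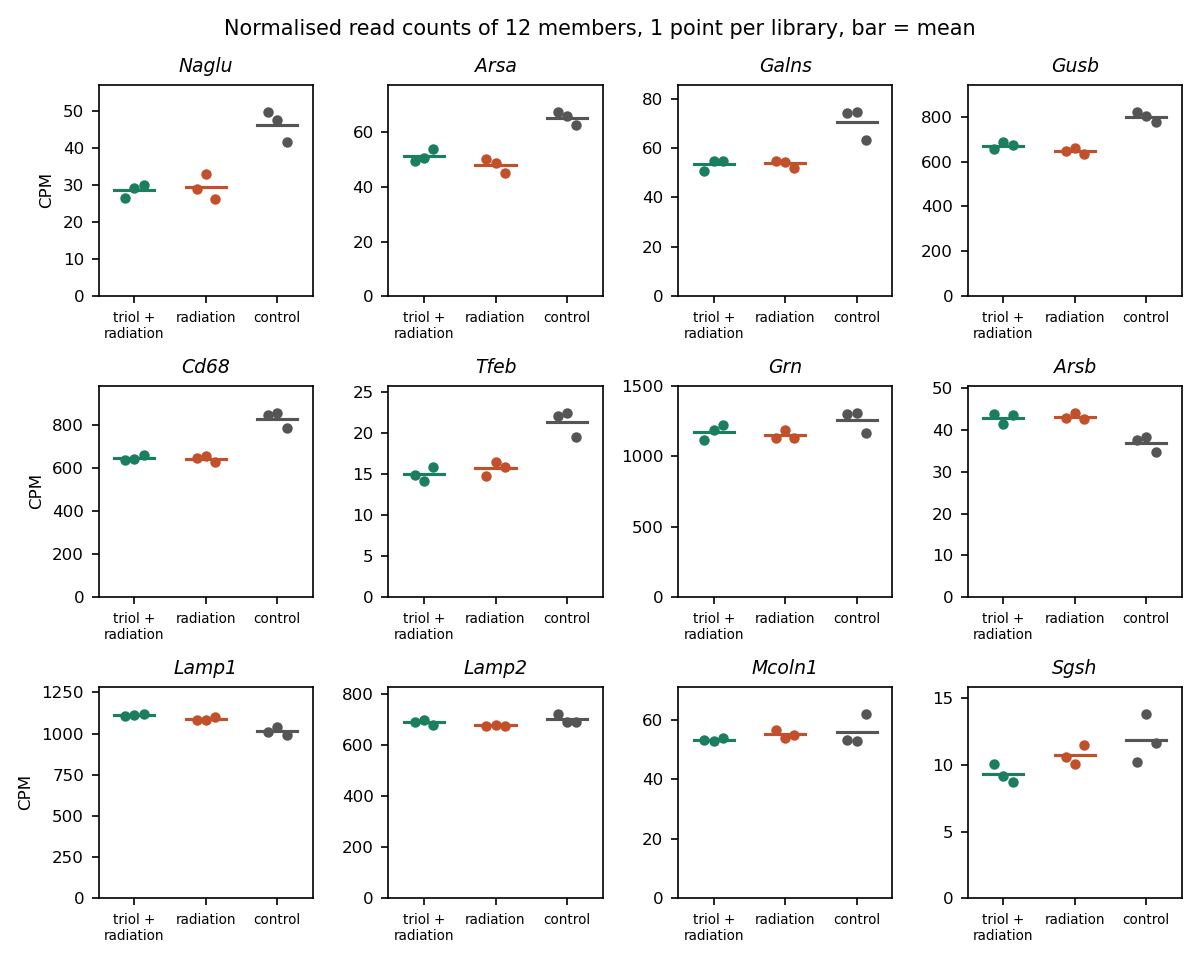
CPM of 12 members in each library (points) with the group mean (bar), on axes that start at 0, for triol-treated irradiated, irradiated and control cells. Control libraries stand above the irradiated ones for Naglu, Arsa, Galns, Gusb, Cd68 and Tfeb, below them for Arsb and Lamp1, and among them for Mcoln1.

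Among the 6 enzymes and activators of lipid breakdown, 2 (33.3%) fell and 0 rose in irradiated against control cells, beside 22.2% and 22.1% of all tested genes. Ppt1, which removes fatty acids from proteins, had 180, 180 and 176 CPM in triol-treated irradiated cells, 176, 167 and 175 CPM in irradiated cells, and 214, 207 and 198 CPM in control cells, and it fell by 0.26 (log2, SE 0.04, edgeR adjusted p = 1.3e-07). Asah1, acid ceramidase, had 296, 300 and 275 CPM in triol-treated irradiated cells, 283, 290 and 272 CPM in irradiated cells, and 316 CPM in each control library, and it fell by 0.17 (log2, SE 0.03, edgeR adjusted p = 7.7e-05). For both genes all control libraries were above all irradiated ones. The log2 fold change was -0.04 for Lipa, the lipase of cholesteryl esters, -0.02 for Psap, the precursor of the saposins, 0.06 for Gm2a, the ganglioside activator, and -0.01 for Smpd1, acid sphingomyelinase, none past the threshold. Smpd1 was measured less closely, with a 95% interval from -0.22 to 0.19. Tpp1, the 1 peptidase of the list, had a log2 fold change of -0.05 (edgeR adjusted p = 0.16).

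Of the 6 membrane proteins, 1 (16.7%) fell, 1 (16.7%) rose and 4 did not pass the threshold in irradiated against control cells. Of all tested genes 22.2% fell and 22.1% rose. Cd68, the macrophage sialomucin at chr11:69664213-69666153, had 636, 642 and 662 CPM in triol-treated irradiated cells, 646, 658 and 628 CPM in irradiated cells, and 848, 855 and 785 CPM in control cells. It fell by 22.4% in irradiated against control cells (log2 -0.36, SE 0.03), and its edgeR adjusted p of 5.6e-13 was the smallest of the members. Lamp1, a main glycoprotein of the limiting membrane at chr8:13159161-13175338, had 1108, 1114 and 1118 CPM in triol-treated irradiated cells, 1083, 1085 and 1098 CPM in irradiated cells, and 1012, 1042 and 993 CPM in control cells. Its rise of 7.16% in irradiated against control cells (log2 0.10, SE 0.03, edgeR adjusted p = 0.0030) was small, but no library overlapped.

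Lamp2, its relative and the receptor of chaperone-mediated autophagy, had 690, 697 and 678 CPM in triol-treated irradiated cells, 675, 677 and 675 CPM in irradiated cells, and 720, 691 and 689 CPM in control cells. The irradiated libraries lay below the control ones, yet the log2 fold change of -0.05 did not pass (SE 0.03, edgeR adjusted p = 0.14). Mcoln1, the calcium channel TRPML1, had 53.4, 52.8 and 54.1 CPM in triol-treated irradiated cells, 56.5, 54.0 and 55.1 CPM in irradiated cells, and 53.3, 52.9 and 62.0 CPM in control cells, and its log2 fold change was -0.02 with a 95% interval from -0.14 to 0.09. Cd63, a tetraspanin of late endosomes, and Laptm5, a lysosomal protein of blood cells, had log2 fold changes of -0.01 and -0.00, with edgeR adjusted p of 0.80 and 0.98. Cd63 has a pseudogene copy that could share its reads.

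Tfeb and Grn both fell. Tfeb, at chr17:47737030-47792419, had 14.9, 14.1 and 15.9 CPM in triol-treated irradiated cells, 14.7, 16.5 and 15.9 CPM in irradiated cells, and 22.1, 22.4 and 19.5 CPM in control cells. It fell by 26.3% in irradiated against control cells (log2 -0.44, SE 0.09, edgeR adjusted p = 6.1e-05), with each control library above each irradiated one. Grn encodes progranulin, a secreted and lysosomal protein whose loss is known for lysosomal storage in neurons, and had 1115, 1189 and 1224 CPM in triol-treated irradiated cells, 1133, 1186 and 1134 CPM in irradiated cells, and 1301, 1307 and 1167 CPM in control cells. Control replicate 3 fell within the irradiated range, and the call of -0.13 (log2, SE 0.04, edgeR adjusted p = 0.0088) was lost without control replicate 2 (adjusted p = 0.059). Of the 15 members that did not pass, 12 had a 95% interval within 0.2 of 0 on the log2 scale, and Ids, Sgsh and Smpd1 did not.

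Triol before radiation was set against vehicle before radiation to ask whether the steroid changes these genes in irradiated cells. By edgeR, 0 of the 32 members passed the threshold, beside 0.106% of all tested genes, and 0 had an unadjusted p under 0.05, beside 7.66% of all tested genes. The 12 genes that passed in this comparison included 3 hepatocyte genes, Alb, Serpina1e and Serpina3k, all higher in triol-treated irradiated cells. Alb, serum albumin, had 61, 65 and 82 counts in triol-treated irradiated cells and 24, 11 and 2 counts in irradiated cells (edgeR adjusted p = 5.8e-04). DESeq2 also called 0, giving an adjusted p to 19 of the members. Log2 fold changes ran from -0.21 for Sgsh to 0.14 for Smpd1 with a median of 0.01, 18 above 0 and 14 below. The 95% interval stayed within 0.2 of 0 for 27 members. For Arsa, Ids, Sgsh, Smpd1 and Tfeb the interval reached farther.

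The smallest unadjusted p-values in that comparison were those of Hexa, Gusb and Sgsh. Hexa averaged 346 ± 10.8 CPM in triol-treated irradiated cells and 332 ± 8.64 CPM in irradiated cells (SD, n = 3 each), a log2 fold change of 0.06 (edgeR adjusted p = 0.70). Gusb averaged 671 ± 15.4 CPM in triol-treated irradiated cells and 646 ± 13.9 CPM in irradiated cells, a log2 fold change of 0.05 (edgeR adjusted p = 0.70). Sgsh averaged 9.31 ± 0.682 CPM in triol-treated irradiated cells and 10.7 ± 0.725 CPM in irradiated cells with a 95% interval of the log2 fold change from -0.44 to 0.02 around -0.21 (edgeR adjusted p = 0.70). Triol-treated and vehicle-treated irradiated libraries were separate for 4 members, with Lamp1, Lamp2 and Ppt1 higher and Sgsh lower in triol-treated irradiated cells, beside 13.2% of all tested genes, 7.35% higher and 5.88% lower, and none of the 4 passed the threshold.

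**Figure D4:**
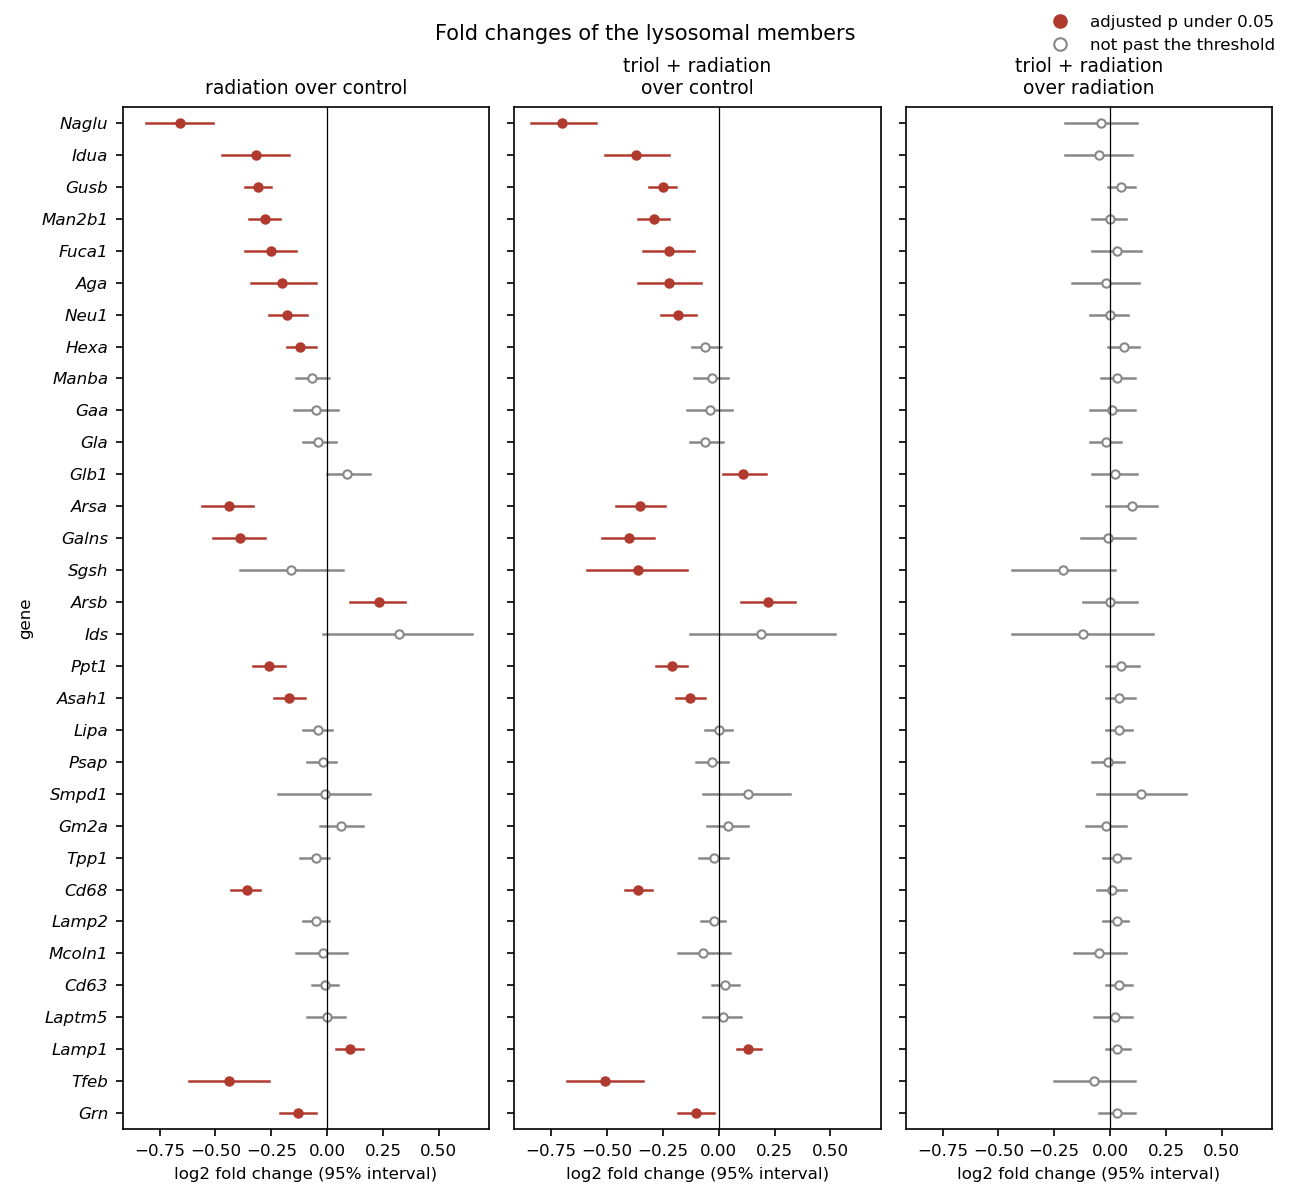
Log2 fold change of each member with its 95% interval in the 3 comparisons, with filled red points where the edgeR adjusted p was under 0.05. The points of the right-hand panel, triol-treated irradiated over irradiated cells, sit near 0 from -0.21 to 0.14, and none is filled.

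Set against control cells, triol-treated irradiated cells had 15 members lower and 3 higher, beside 43.3% of all tested genes that passed, 21.7% lower and 21.5% higher. The libraries of these groups did not overlap for 17 members, beside 51.1% of all tested genes. This comparison uses the same control libraries as the one above, so its values are given beside that one and are not a second test of it. The log2 fold changes in triol-treated irradiated against control cells and in irradiated against control cells were -0.70 and -0.66 for Naglu, -0.51 and -0.44 for Tfeb, and -0.35 and -0.44 for Arsa. For Cd68 both were -0.36, and for Lamp1 they were 0.13 and 0.10. Hexa, at -0.06 (SE 0.03, edgeR adjusted p = 0.16), did not pass against control cells in the triol group. Sgsh fell there by 0.36 (log2, SE 0.11, edgeR adjusted p = 0.0074) and Glb1 rose by 0.11 (log2, SE 0.05, edgeR adjusted p = 0.047). None of these 3 genes differed past the threshold between triol-treated irradiated and irradiated cells. The overlap of Sgsh with Card14 on the other strand limits its values here as well. Single libraries decided several calls against control: without control replicate 2 the adjusted p was 0.14 for Sgsh and 0.2 for Grn, and without triol replicate 3 it was 0.052 for Asah1. Without control replicates 1 or 3 or triol replicates 2 or 3 the adjusted p of Glb1 was 0.17, 0.089, 0.14 and 0.18, and without control replicate 1 or triol replicates 1 or 2 that of Grn was 0.16, 0.21 and 0.069. Without control replicate 3, Hexa and Psap passed in this comparison at adjusted p of 0.036 and 0.048.

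Other genes of the lysosome were counted in 4 further lists, from known function, that share no gene with the members. Among further hydrolases 14 of 26 tested genes (53.8%) fell and 2 (7.69%) rose in irradiated against control cells, with a median log2 fold change of -0.14. Over all tested genes 22.2% fell and 22.1% rose, with a median of 0.01. Pld4, a nuclease of endolysosomes, fell by 0.48 (log2, SE 0.03, edgeR adjusted p = 2.5e-15), and Man2b2, a further mannosidase, fell by 0.46 (SE 0.05, edgeR adjusted p = 8.7e-10). Siae, a sialic acid esterase, rose by 0.33 (log2, SE 0.05, edgeR adjusted p = 6.4e-07), and Arsk, a further sulfatase, by 0.30 (SE 0.07, edgeR adjusted p = 8.4e-04).

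Further membrane proteins and transporters included 14 of 32 tested genes (43.8%) that fell and 3 (9.38%) that rose, with a median of -0.14. The shares over all tested genes were 22.2% and 22.1%. Tpcn2, an endolysosomal cation channel, fell by 0.51 (log2, SE 0.07, edgeR adjusted p = 2.2e-07), while Scarb2, the receptor that carries glucocerebrosidase to the lysosome, had 127, 128 and 119 CPM in triol-treated irradiated cells, 127, 127 and 124 CPM in irradiated cells, and 93.8, 91.5 and 93.2 CPM in control cells. Its log2 fold change of 0.44 in irradiated against control cells (SE 0.04, edgeR adjusted p = 7.8e-12) was the highest of that list. Npc2, which hands cholesterol on inside the lysosome, rose by 0.13 (log2, SE 0.03, edgeR adjusted p = 2.2e-04).

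Genes that tag, sort and carry enzymes to the lysosome were lower for 15 of 28 (53.6%) and higher for 3 (10.7%). The shares over all tested genes were 22.2% and 22.1%. The median log2 fold change of the list was -0.12. Lrp1, an endocytic receptor, fell by 0.54 (log2, SE 0.04, edgeR adjusted p = 7.8e-13), and Gga1, an adaptor of the mannose phosphate receptors, fell by 0.44 (SE 0.05, edgeR adjusted p = 2.3e-09). Igf2r, the large mannose phosphate receptor, rose by 0.12 (log2, SE 0.03, edgeR adjusted p = 0.0033).

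Genes that control TFEB, with its relatives, were lower for 11 of 23 tested (47.8%) and higher for 3. Beside this, 22.2% of all tested genes fell and 22.1% rose. The median log2 fold change of this list was -0.11 in irradiated against control cells. Rragd, a Rag GTPase and itself a known TFEB target, moved most, and it is a low gene with 33, 35 and 39 counts in triol-treated irradiated cells, 29, 32 and 32 counts in irradiated cells, and 9, 9 and 3 counts in control cells. Its log2 fold change in irradiated against control cells was 2.21 (SE 0.35, edgeR adjusted p = 1.4e-06), the reverse of the direction of Tfeb. Tfe3, the relative of Tfeb, had a log2 fold change of -0.13 (edgeR adjusted p = 0.038), a call lost without control replicate 1, control replicate 2 or irradiated replicate 1, at adjusted p of 0.24, 0.066 and 0.22 in that order, and also lost under upper quartile scaling (0.1) and with DESeq2 (0.072). Mitf and Tfec, the other relatives, had edgeR adjusted p of 0.055 and 0.97. Triol against vehicle in irradiated cells gave 0 genes past the threshold in each of the 4 lists, by edgeR, and at an unadjusted p under 0.05 there were 5 further hydrolases (19.2%), 4 membrane proteins (12.5%), 0 sorting genes and 6 TFEB control genes (26.1%), beside 7.66% of all tested genes.

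**Figure D5:**
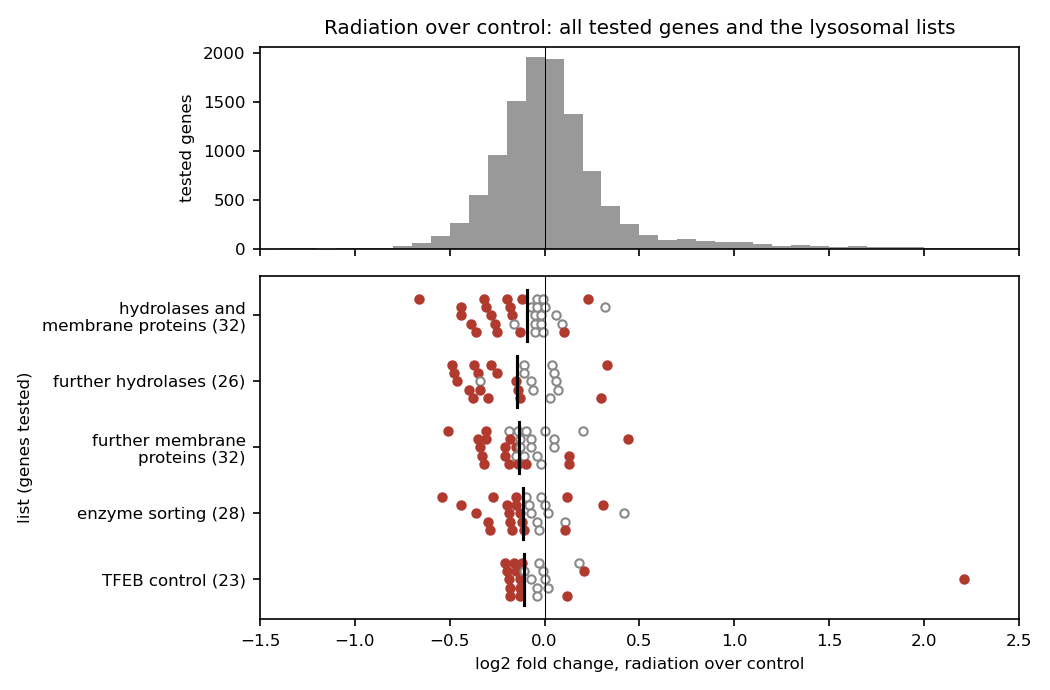
Log2 fold change of irradiated over control cells for all tested genes as a histogram (upper panel, number of genes per bin of 0.1) and for each gene of 5 lists (lower panel), filled red where the edgeR adjusted p was under 0.05, with a black bar at the median. The histogram runs from -1.5 to 2.5, and 100 tested genes outside that range are not drawn. The medians of the lists lie at -0.09 for the members and at -0.14, -0.14, -0.12 and -0.11 for the further lists, and Rragd is the point at 2.21.

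The members lie on several chromosomes, with 6 on chromosome 11 and 6 on chromosome 8. Gaa and Sgsh lie 57970 bases apart on chromosome 11 and Smpd1 and Tpp1 186421 bases apart, and in neither pair did a gene pass the threshold in irradiated against control cells.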

How the data were processed

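The 9 RNA libraries, 3 per group, were assigned to groups by the sample titles. Raw read counts per gene, as whole numbers, are what the authors deposited, with no normalisation. Per the submitters' processing notes, fastp 0.18.0, FastQC, STAR 2.7.1a and featureCounts of Subread 1.6.3 were used on GRCm38, while annotation release and strand setting are not stated there. All 21951 gene IDs were found in GENCODE M21, which gave coordinates, overlaps and exonic lengths.

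Counts were tested in edgeR 4.0.16 (R 4.3.3) with TMM scaling, filterByExpr, which kept 11295 genes, and a robust quasi-likelihood F test, two-sided, in 1 fit of all 9 libraries with 6 residual degrees of freedom. P-values were adjusted over all tested genes by Benjamini-Hochberg. Intervals cover 95%. The biological coefficient of variation was 3.18%. The test was also run on counts simulated from the means and spread fitted to these same libraries, and its outcome there is not reported. DESeq2 1.42.0, other scalings, no filter, 2 groups at a time, a replicate block and leaving out each library were the alternatives. Genes described singly were up to 8 members with the largest fall and up to 8 with the largest rise past the threshold under radiation, the 3 with the smallest p under triol, and Mcoln1, Grn and Lamp2; the other members, and genes of further lists, were described after their values were seen. The members and lists were chosen with earlier results of these data known.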

Additional observations from a re-analysis of the deposited data

How the results depend on the processing

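Member calls under the alternatives (RLE and upper quartile scaling, DESeq2, no filter, only the 2 groups compared, a replicate block, and each library left out) were close to those reported. Of 1139 member values under an alternative 1115 stayed on their side of the threshold, 20 lost the call and 4 gained it. No called value changed sign. Values near 0 that had not passed changed sign in 56 cases, which had log2 fold changes of at most 0.06 in size under the alternative. Leaving out 1 library gave 16 to 18 called members for irradiated against control cells, 0 for triol-treated irradiated against irradiated cells and 16 to 19 for triol-treated irradiated against control cells. Under upper quartile scaling Aga and Grn lost calls, at adjusted p of 0.052 against control in irradiated cells and 0.12 in triol-treated irradiated cells, and Glb1 gained one at 0.037 in irradiated against control cells. In triol-treated irradiated against control cells Glb1 also lost its call under RLE scaling, DESeq2 and no filter (0.051, 0.096 and 0.11), and Grn with only 2 groups (0.054). The number of all genes called between triol-treated irradiated and irradiated cells was 12, and was 19 with DESeq2, 36 without a filter, 22 with only the 2 groups, 22 with the replicate block and 5 to 15 with a library left out. The TFEB control list had 13 calls in triol-treated irradiated against control cells and 7 to 11 with a library left out. Calls over all tested genes also dropped in that comparison, from 4886 to between 4073 and 4704 with a library left out. With the replicate number as a block, 17, 0 and 18 members passed in irradiated against control, triol-treated irradiated against irradiated and triol-treated irradiated against control cells, as without it. Same-numbered libraries did not deviate together, with correlations between -0.0522 and 0.0442, beside -0.068 to 0.0559 for libraries of different numbers. This gives no sign that the numbers pair the libraries. It cannot exclude pairing, since with little spread within groups a shared deviation would be hard to see. Depth limits Ids, Sgsh, Smpd1 and Tfeb most.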
